A study of Mus musculus with 30 samples.

Results

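The cells described here are bone marrow progenitors with transcripts of Prss34, Mcpt8, Prg2 or Ms4a2, genes of basophils, mast cells and eosinophils. A cell was selected when at most 10% of its UMIs were mitochondrial and the counts of these 4 genes, scaled to 10000 UMIs per cell and summed, came to at least 10. This gave 371 of the 24396 cells that passed the mitochondrial limit, out of 24693 in the table. The limit removed 297 cells, 5 of which met the gene part of the rule. Cells came from 6 droplet (10x) libraries of Lin-; c-Kit+ (LK) bone marrow, a gate that holds most myeloid and erythroid progenitors, with 3 mice of each genotype. WT mice were Mettl3 fl/fl without Cre, and Mettl3KO mice were Mx1-Cre; Mettl3 fl/fl. Both groups were taken 3 weeks after pIpC, a double-stranded RNA that induces interferon and through it the Mx1 promoter, which is active in many cell types beside blood cells. Mettl3 is the catalytic subunit of the complex that writes m6A on messenger RNA. The control mice carried no Cre, so an effect of Cre and an effect of Mettl3 loss cannot be told apart. Bulk libraries of 4 sorted Lin-;Sca1+;c-Kit+ populations came from the same genotypes at the same time, with 3 replicates of each. HSC were sorted as CD150+;CD48- and MPP4 with the reverse phenotype, CD150-;CD48+. MPP1 lacked both surface proteins and MPP2 carried both. The labels give neither age nor sex.

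Basophils and mast cells are granule-bearing effector cells of allergy and of defence against parasites. They bind IgE through a receptor of which Fcer1a is the IgE-binding chain, Ms4a2 the beta chain and Fcer1g the shared gamma chain, and cross-linking of that receptor releases histamine, proteases and lipid mediators. Progenitors of both are found in the bone marrow and develop under Gata2, and eosinophils, which depend on Gata1, arise from related progenitors. Mcpt8 and Prss34 are serine proteases of mouse basophil granules, Cpa3 is a carboxypeptidase shared by mast cells and basophil progenitors, and Prg2 is the major basic protein of eosinophils.

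The 100 bases before the RefSeq start of 4 marker genes are printed. Prss34, Mcpt8 and Ms4a2 belong to the selection rule, and Cpa3 is a marker that the rule did not use. The 4 genes lie on 4 different chromosomes, and Gata2, the factor of this branch, is among the genes compared between genotypes. Capitals mark GATAA or its reverse complement TTATC, searched on both strands, and all windows are from build GRCm38.p6 and read 5′ to 3′ on the strand of the gene. Prg2 has no window in the table used.
Prss34, chr17:25298294-25298393, + strand: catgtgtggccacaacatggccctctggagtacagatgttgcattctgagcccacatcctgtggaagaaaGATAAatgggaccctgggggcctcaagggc
Mcpt8, chr14:56085198-56085297, - strand: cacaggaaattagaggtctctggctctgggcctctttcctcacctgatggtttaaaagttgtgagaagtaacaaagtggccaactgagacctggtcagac
Cpa3, chr3:20242182-20242281, - strand: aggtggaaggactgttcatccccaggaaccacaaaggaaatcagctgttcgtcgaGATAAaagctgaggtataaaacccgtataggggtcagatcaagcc
Ms4a2, chr19:11623720-11623819, - strand: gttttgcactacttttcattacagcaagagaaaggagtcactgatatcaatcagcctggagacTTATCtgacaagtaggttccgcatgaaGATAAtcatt
The Prss34 window held 1 match 30 bases before the start, that of Cpa3 1 match 45 bases before it, and that of Ms4a2 2 matches at 37 and 10 bases. The Mcpt8 window held none. Most of that window lies inside the gene as GENCODE annotates it, since that model starts further upstream than the RefSeq start. Of all 32851 promoter windows of this length, 8.55% held at least 1 match. These are matches of letters and not shown to be bound sites.

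In the annotation (GENCODE vM21, build GRCm38) Prss34 spans chr17:25298394-25300165 with 5 exons, Mcpt8 chr14:56082166-56085273 with 5 exons, Prg2 chr2:84980461-84983632 with 6 exons, Ms4a2 chr19:11615523-11623719 with 7 exons, and Cpa3 chr3:20215620-20242181 with 11 exons. The bulk and droplet tables give 1 value for the whole gene, so exons, introns and UTRs are not told apart.

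Libraries held 28796862 to 44308479 UMIs over all their cells, before the mitochondrial limit. The median UMI count per selected cell was 4277 to 7252 over the 6 libraries, against 5984 to 10605 in the unselected cells, and the median mitochondrial share of the selected cells was 3.38% to 3.61%. Mettl3 itself fell in all kept LK cells from 20.3 ± 1.82 CPM (counts scaled to library size) in WT to 12.1 ± 1.28 in Mettl3KO (SD, n = 3; log2 fold change -0.75 ± 0.10 SE, adjusted p = 0.00239, edgeR quasi-likelihood test with Benjamini-Hochberg adjustment). In the selected cells Mettl3 had 7, 12 and 3 UMIs in WT and 1, 5 and 5 in Mettl3KO, too few for the test. WT replicate 3 stood apart among the unselected cells: its 12 granulocyte genes summed to 1004 UMIs per 10000, against 125 to 230 in the other 5 libraries, while its selected cells had 124, against 88.4 to 122. Of 24389 barcodes, 303 occurred in more than 1 library. Among these, 11 belonged to a selected cell in 1 library, and 0 to selected cells in 2.

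The name basophil and mast progenitors covers a mixture. With cut-offs set after the values were seen, the selected cells were split in turn by Jchain (at least 100 per 10000 UMIs), Prg2 (at least 10), and Cpa3 or Ms4a2 (at least 3 of either), and the remainder carried Mcpt8 alone. The Cpa3/Ms4a2 cells numbered 223 (60.1%), the Prg2 cells 55, the cells with Mcpt8 alone 45 and the Jchain-high cells 48. The levels that follow chose the cells and are a description with no test.

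Summed as a group, the Cpa3/Ms4a2 cells carried the basophil programme. They held Prss34 at 107 and Mcpt8 at 111 UMIs per 10000, and Cpa3 at 32.3. Of these 223 cells, 218 had a UMI of Cpa3, 218 a UMI of Ms4a2, and 130 had both Prss34 and Mcpt8. In 49 of these cells Ms4a2 was the only rule gene with a UMI, so Prss34 and Mcpt8 were not seen. Fcer1a stood at 5.90 per 10000, Csrp3 (a LIM domain protein better known from muscle) at 8.70, the LIM-only factor Lmo4 at 15.8, the transcription factor Gata2 at 2.97 and Hdc, which makes histamine, at 2.96. Prss34 was unevenly spread within them, with a median of 5.77 per 10000 and an upper quartile of 146, whereas Ms4a2 ran from a lower quartile of 6.46 to an upper quartile of 15.5. The granule genes of the Elane-positive granulocyte branch were low but present, with Mpo at 23.1 and Elane at 6.86 per 10000.

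Genes of mature mast cells were at or near 0 in the selected cells. Mcpt4, a connective tissue mast cell chymase, had 0 UMIs, the tryptase Tpsb2 had 1 and Mitf, a transcription factor that mast cells require, had 2. Cma1, another chymase, had 199 UMIs, of which 198 were in 1 cell of Mettl3KO replicate 2. Gzmb, a granzyme that mast cells express, had 89 UMIs in 13 cells, with 45 of them in 1 cell. Of 19 mast cell list genes 6 had enough counts to be tested in the selected cells: Cpa3, Kit, Il1rl1 (the receptor for IL-33), Gzmb, the integrin Itgb7 and the monoamine transporter Slc18a2. None of these is limited to mast cells.

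The Prg2 cells carried eosinophil genes. Prg2 stood at 415 UMIs per 10000, its homolog Prg3 at 35.5, the eosinophil peroxidase Epx at 15.8 and the ribonuclease Ear2 at 1.70. Of these 55 cells, 50 had a UMI of Prg3 or Epx, against 7 of the 223 Cpa3/Ms4a2 cells. Cebpe, a factor of late granulocyte development, was at 9.498 per 10000, against 0.44 in the Cpa3/Ms4a2 cells. The 2 programmes met in some cells: 20 Prg2 cells had an Ms4a2 UMI and 13 had a Prss34 UMI.

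The cells with Mcpt8 alone had few other basophil transcripts. Over all 45 of them Cpa3 had 1 UMI, Ms4a2 had 3 and Fcer1a had 0, while the neutrophil granule genes Elane (57.6 per 10000), Prtn3 (50.0) and Mpo (52.3) were present. Those 3 genes stood at 133, 64.5 and 67.6 per 10000 in the unselected cells with Elane. The Mcpt8 level of the 45 cells was 29.3 per 10000. They were deeper than the other selected cells, with a median of 11801 UMIs, against 5425 in the Cpa3/Ms4a2 cells. Mcpt8 was also the rule gene most often seen outside the selection: a UMI occurred in 25.7% of 7471 unselected cells with Elane (median 10439 UMIs) and in 5.48% of 2701 cells with the erythroid gene Car1 (median 15668 UMIs).

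The Jchain-high cells went against the name. Jchain, which joins antibody subunits, stood at 1770 per 10000 UMIs, and the plasma cell genes Mzb1 (30.03), Xbp1 (25.6) and Sdc1 (4.501) were present too. All 48 entered through Prg2, at 25.3 per 10000. None of the 48 had a UMI of Prss34, Mcpt8, Ms4a2 or Cpa3, and all kept LK cells held 111 such Jchain-high cells.

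**Figure D1:**
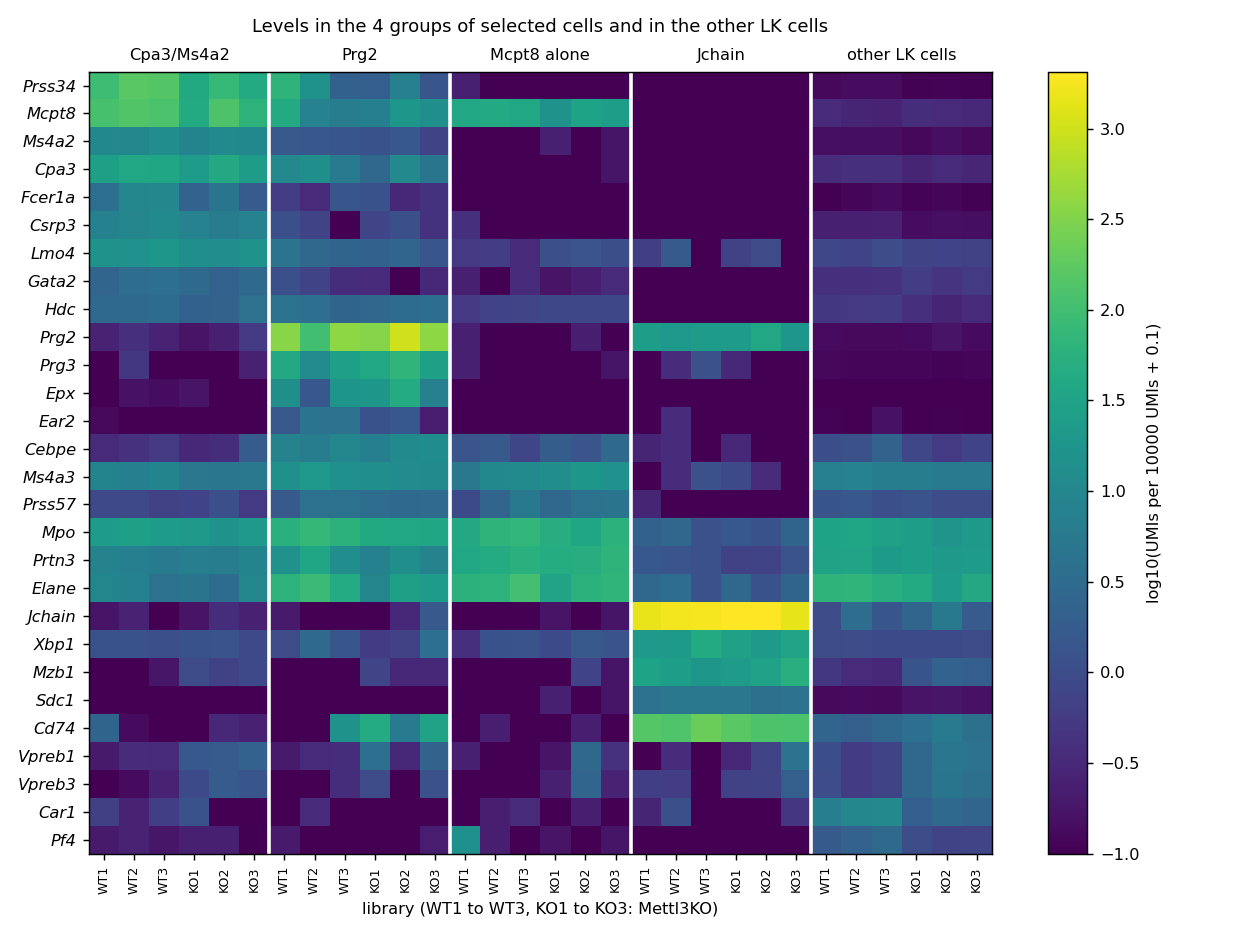
Heat map of the level of 28 genes, as log10 of UMIs per 10000 plus 0.1, in each library (columns) of the 4 groups of selected cells and of the unselected (other) LK cells. Prss34, Cpa3 and Ms4a2 are brightest in the Cpa3/Ms4a2 columns, Prg2, Prg3 and Epx in the Prg2 columns, and Jchain in the Jchain columns, where Prss34, Mcpt8, Ms4a2 and Cpa3 are at 0.

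Near the cut-off the cells were sparse in the rule genes. The 10 cells just inside it had sums of 10.0 to 10.2 per 10000 from a median of 6.5 UMIs, and 4 of them had a Cpa3 UMI. The 10 just outside had sums of 9.72 to 9.99 from a median of 7 UMIs, and 5 had a Cpa3 UMI. In all, 127 selected cells lay under 20 per 10000 and 225 unselected cells lay between 5 and 10.

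Apart from the 4 rule genes, 25 genes stood furthest above the unselected cells in every library, again a description. Of these, 16 were highest in the Cpa3/Ms4a2 cells, 4 in the Prg2 cells, 5 in the Jchain-high cells and 0 in the cells with Mcpt8 alone. Cpa3 had 18.6 ± 7.87 UMIs per 10000 (SD, n = 6 libraries) against 0.24 ± 0.05 in unselected cells, a log2 ratio of 5.05 to 6.09 over the libraries. Csrp3 had 4.81 ± 2.24 against 0.09 ± 0.05, with a log2 ratio of 4.38 to 5.09. Others led by the Cpa3/Ms4a2 cells were the IgE receptor chain Fcer1a, the activating receptor Cd200r3, the steroid side-chain cleavage enzyme Cyp11a1, the lymphoid factor Ikzf2, the lysophospholipid acyltransferase Lpcat2, the leukotriene enzyme Alox5 and the interferon-inducible Ifitm1. Hdc was highest in the Prg2 cells, at 3.43 per 10000, beside 2.96 in the Cpa3/Ms4a2 cells. The 10 genes furthest below the unselected cells were neutrophil genes (Camp, S100a9, Ngp, S100a8, Fcnb), erythroid genes (Car1, Car2, Hbb-bt, Hbb-bs) and Dntt of lymphoid progenitors.

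The first comparison asked whether Mettl3 loss changed how many LK cells met the rule. Selected cells made up 2.01%, 1.91% and 1.61% of the kept cells in the WT libraries and 1.20%, 1.53% and 0.986% in the Mettl3KO libraries. All 3 Mettl3KO values lay below all 3 WT values, with means of 1.84 ± 0.21% and 1.24 ± 0.27% (SD, n = 3). An exact two-sided permutation test gave p = 0.1, the smallest that 3 against 3 libraries allow. The counting error alone ran from 1.62% to 2.46% for WT replicate 1 and from 0.728% to 1.31% for Mettl3KO replicate 3 (exact 95% binomial intervals, which cover counting error only). With cells thinned to 3000 UMIs the shares were 2.01 ± 0.29% and 1.51 ± 0.31% and overlapped (exact permutation p = 0.2). Cells with fewer UMIs were left out there, 419 of them in WT replicate 3 and at most 79 in any other library. The shares also overlapped at a cut-off of 5 per 10000 (2.78% and 2.15%, exact permutation p = 0.2).

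The lower share was seen in the Cpa3/Ms4a2 cells. They made up 1.27%, 1.39% and 1.24% of the kept cells in WT and 0.472%, 0.747% and 0.432% in Mettl3KO. The groups did not overlap, and the WT mean of 1.30 ± 0.08% was 2.37 times the Mettl3KO mean of 0.550 ± 0.17% (SD, n = 3; exact permutation p = 0.1, the smallest possible). In cell numbers this was 160 WT and 63 Mettl3KO cells. Because these cells are defined by Cpa3 and Ms4a2, lower levels of those genes per cell would also lower their count.

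The cells with Mcpt8 alone went the other way, with 0.112%, 0.171% and 0.115% in WT and 0.283%, 0.238% and 0.206% in Mettl3KO. Here too the groups did not overlap (0.132 ± 0.03% and 0.242 ± 0.04%, SD, n = 3, exact permutation p = 0.1), with 16 WT and 29 Mettl3KO cells. These cells are the remainder of the split, so lower Cpa3 or Ms4a2 per cell would also raise their count. Their shift is therefore not independent of that of the Cpa3/Ms4a2 cells. Prg2 cells (0.220 ± 0.10% and 0.225 ± 0.01%, exact p = 1) and Jchain-high cells (0.186 ± 0.11% and 0.222 ± 0.09%, exact p = 0.6) overlapped between genotypes. As a result the make-up of the selected cells moved with genotype: Cpa3/Ms4a2 cells were 71.2 ± 7.10% of them in WT and 44.0 ± 4.84% in Mettl3KO, and cells with Mcpt8 alone 7.22 ± 1.70% and 19.97 ± 4.06%.

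**Figure D2:**
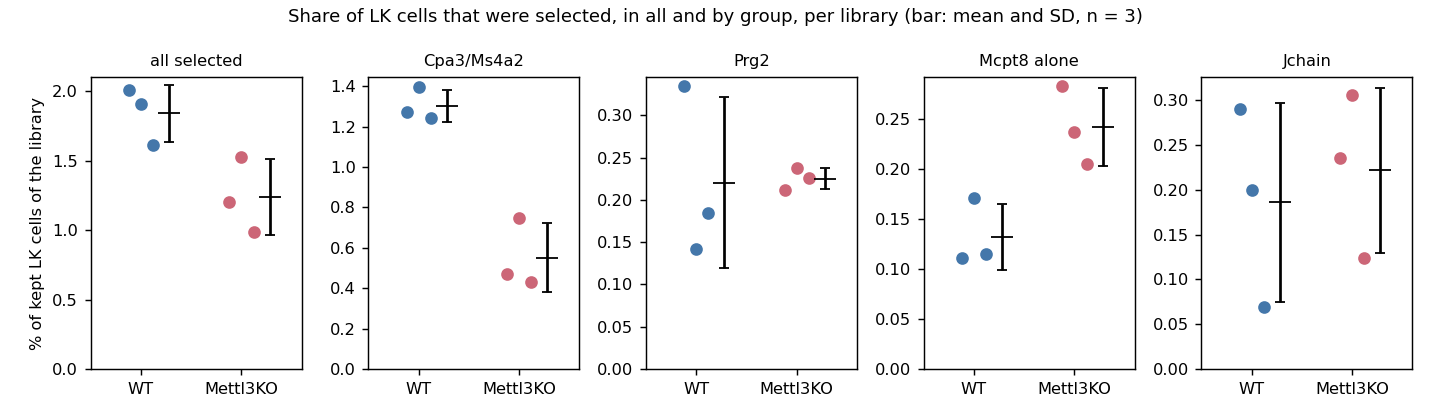
Percent of kept LK cells that met the rule, in all and in each of the 4 groups, with 1 point per library and a bar for the mean and SD (n = 3). Mettl3KO points lie below WT for all selected cells and for Cpa3/Ms4a2 cells, above WT for cells with Mcpt8 alone, and within or across the WT range for Prg2 and Jchain cells.

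A comparison free of the selection summed the UMIs over all kept LK cells of a library, where the rule plays no part. Prss34, Mcpt8, Ms4a2 and Cpa3 fell with Mettl3 loss, and Prg2 did not pass the test. The wider lists were mixed. Of 16 basophil genes tested 4 fell (Fcer1a, Hdc, Lmo4 and Ccl3), 1 rose (Ifitm1) and 11 did not pass, with a median log2 fold change of -0.01. Of 11 mast cell genes tested 4 fell (Cpa3, Kit, Il1rl1 and Slc45a3) and 7 did not pass (median 0.02). Of 5 eosinophil genes tested 2 fell (Siglecf and Cebpe) and 3 did not pass (median -0.73). In that fit 22.4% of the 13071 genes tested passed an adjusted p of 0.05, 13.7% upward and 8.72% downward, so a fall of any 1 gene is common. In these sums fewer cells of a type and less RNA per cell cannot be told apart.

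Prss34 showed the largest fall of the markers, from 99.5, 136 and 128 CPM in WT to 15.6, 40.9 and 14.6 in Mettl3KO. Every WT library was above every Mettl3KO library, and the log2 fold change was -2.37 ± 0.37 (SE; adjusted p = 0.00389, edgeR quasi-likelihood test with Benjamini-Hochberg adjustment, as for all adjusted p-values in this paragraph and the next). Mcpt8 fell from 140, 137 and 132 CPM to 48.0, 97.5 and 49.9 (-1.07 ± 0.25, adjusted p = 0.0176). Cpa3 fell from 51.4, 62.6 and 63.8 CPM to 25.7, 44.3 and 27.3 (-0.87 ± 0.20, adjusted p = 0.0169), and Ms4a2 from 14.4, 12.2 and 16.2 to 5.43, 10.4 and 6.07 (-0.97 ± 0.23, adjusted p = 0.0206). Mettl3KO replicate 2 was the highest knockout library for all 4 genes and still lay below every WT library. Fcer1a fell from 3.67, 9.75 and 12.02 CPM to 1.98, 3.55 and 1.18 (-1.94 ± 0.49, adjusted p = 0.0250).

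Among single genes that fell in the whole LK sums were Csrp3 (-1.66 ± 0.12, adjusted p = 0.000342), Il1rl1 (-1.27 ± 0.19, adjusted p = 0.00345) and Hdc (-1.004 ± 0.15, adjusted p = 0.00304). Prss34, Csrp3, Il1rl1 and Hdc passed with any 1 library left out. The calls of the other markers depended on which library was left out. Without Mettl3KO replicate 1 or Mettl3KO replicate 3 those of Mcpt8, Cpa3, Ms4a2 and Fcer1a were lost, as were those of Cpa3 and Fcer1a without WT replicate 2 and of Ms4a2 without WT replicate 1. Their highest adjusted p-values in those fits were 0.0570 for Mcpt8, 0.0592 for Cpa3, 0.0739 for Ms4a2 and 0.0845 for Fcer1a. Kit, the receptor for stem cell factor, fell by 0.48 and lost its call without Mettl3KO replicate 3 (adjusted p = 0.0646). Lmo4 (-0.48, adjusted p = 0.0380) lost its call without WT replicate 1 or any 1 Mettl3KO replicate (adjusted p up to 0.109). The eosinophil granule genes did not pass. Prg2 was at 86.7, 16.0 and 53.6 CPM in WT and 43.6, 175 and 84.1 in Mettl3KO (0.95 ± 0.62, adjusted p = 0.313), Prg3 had a log2 fold change of 0.30 (adjusted p = 0.633) and Epx of 0.93 (adjusted p = 0.438). Siglecf, a surface lectin of eosinophils, fell by 0.73 (adjusted p = 0.0330) and Cebpe by 1.30 (adjusted p = 0.0268), the latter with 237 CPM in WT replicate 3 and 109 or less in the other libraries. Whether the effect differs between the basophil and eosinophil genes was not tested.

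**Figure D3:**
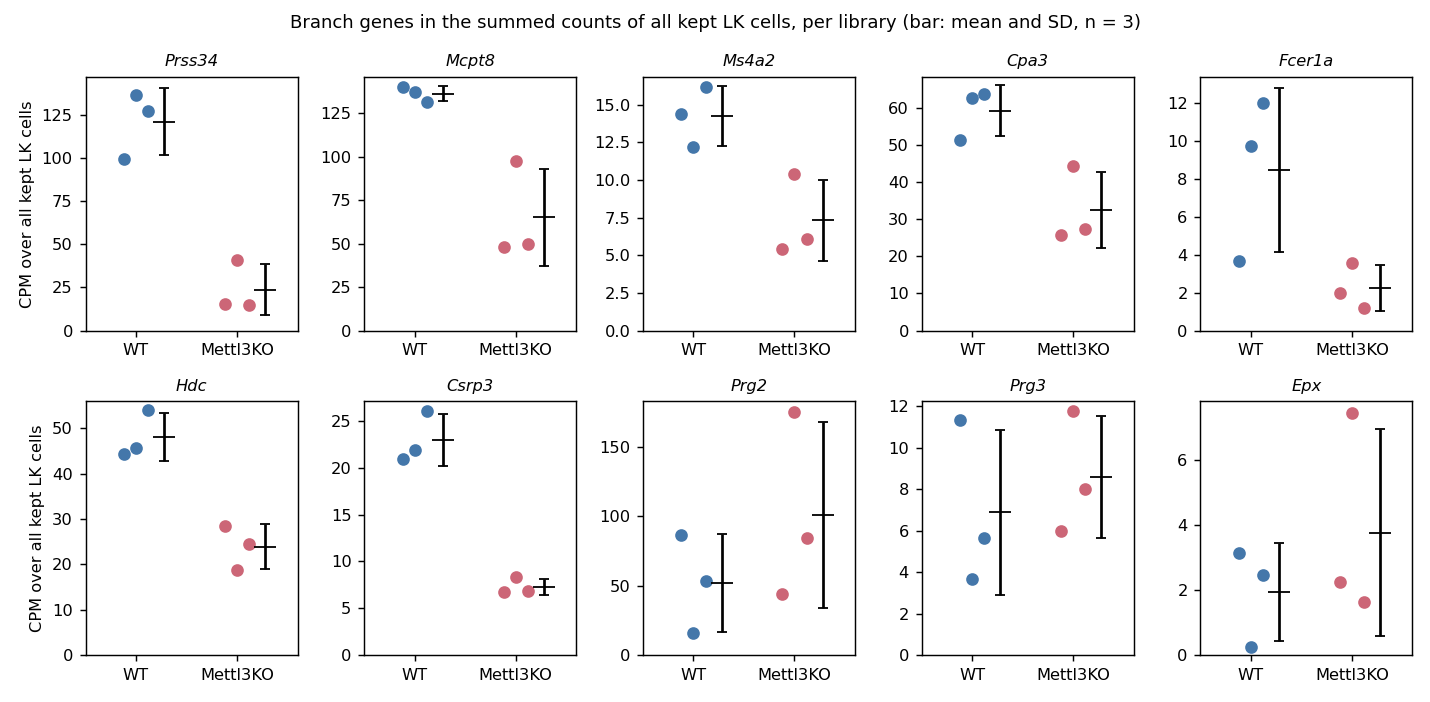
CPM of 10 branch genes in sums over all kept LK cells, on linear axes from 0, with 1 point per library and a bar for the mean and SD (n = 3). Prss34 runs from 99.5 to 136 in WT and from 14.6 to 40.9 in Mettl3KO, whereas Prg2, Prg3 and Epx overlap between genotypes.

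Within the selected cells, UMIs were summed per library and Mettl3KO was set against WT. The IgE receptor chain Fcer1a and the progenitor genes Csrp3, Lmo4, Gata2 and Runx1 fell, and metallothioneins and pre-B cell genes rose. In all, 48 of 4125 genes tested passed (1.16%), 29 higher (0.703%) and 19 lower (0.461%) in Mettl3KO, and 469 had an unadjusted p under 0.05. The 3 and 3 CPM values did not overlap for any of the 48, nor for 16.7% of all genes tested. Of these 48, 10 passed in all 6 fits that left out 1 library, namely Vpreb1, Vpreb3, Igll1, Ebf1, Serpina3g, Mt1, Apoe, Csrp3, Tyrobp and Lmo4. Another 34 passed in 4 or fewer of those fits. Adjusted p-values in this comparison are from edgeR's quasi-likelihood test with Benjamini-Hochberg adjustment.

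Because the make-up of the selected cells differed between genotypes, values are also given from the same fit on the Cpa3/Ms4a2 cells alone, in which 14 of 2568 genes passed (0.545%), 8 higher (0.312%) and 6 lower (0.234%). Of the 48 genes, 31 were tested there and 8 passed. All 31 had the same sign as over all selected cells. The Cpa3/Ms4a2 cells are part of the selected cells, so agreement in sign is no separate check. DESeq2 on these cells called 5 rises and 0 falls, so the falls named below for the Cpa3/Ms4a2 cells rest on edgeR. The part of the make-up in the values over all selected cells was otherwise not tested.

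Fcer1a, the chain that binds IgE, stood at 254, 696 and 773 CPM in WT and 99.5, 235 and 70.5 in Mettl3KO. The genotypes did not overlap but were close between WT replicate 1 and Mettl3KO replicate 2. It fell by 2.10 ± 0.38 (log2, SE; adjusted p = 0.00833), and without Mettl3KO replicate 1 or Mettl3KO replicate 3 the call was lost (adjusted p = 0.105 and 0.0505). DESeq2 did not call it (adjusted p = 0.218). In the Cpa3/Ms4a2 cells alone it fell by 1.46 ± 0.29 (adjusted p = 0.00659), with WT replicate 1 below Mettl3KO replicate 2. A UMI of Fcer1a was seen in 105 of the 160 WT and 28 of the 63 Mettl3KO Cpa3/Ms4a2 cells. The other chain measured, Fcer1g, had a log2 fold change of -0.64 ± 0.16 (adjusted p = 0.0669), and Ms4a2 was used to select the cells.

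Csrp3 had 548, 674 and 892 CPM in WT and 321, 336 and 313 in Mettl3KO, a fall of 1.11 ± 0.16 (adjusted p = 0.000878). Lmo4, a LIM-only cofactor of transcription, fell from 1158, 1155 and 1512 CPM to 622, 735 and 676 (-0.91 ± 0.13, adjusted p = 0.000809). Apoe, an apolipoprotein, fell from 1164, 1345 and 1715 CPM to 514, 604 and 792 (-1.14 ± 0.16, adjusted p = 0.000809). Each WT library was above each Mettl3KO library for these 3 genes. In the Cpa3/Ms4a2 cells alone the log2 fold changes were smaller and none passed: -0.40 for Csrp3 (adjusted p = 0.551), -0.28 for Lmo4 (adjusted p = 0.692) and -0.48 for Apoe (adjusted p = 0.292).

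Among the 20 transcription factors of the branch, 10 were tested, 3 fell (Lmo4, Gata2 and Runx1) and 0 rose, with a median log2 fold change of -0.76, against -0.01 over all genes tested. Gata2, which directs basophil and mast cell development, had 188, 248.6 and 291 CPM in WT and 122, 111 and 127 in Mettl3KO (-0.99 ± 0.18, adjusted p = 0.0111). Runx1 had 119, 174 and 172 CPM in WT and 77.4, 80.5 and 62.0 in Mettl3KO (-1.06 ± 0.21, adjusted p = 0.0184). Both were separate between genotypes, yet the call of Gata2 was lost without WT replicate 3 or Mettl3KO replicate 1 (adjusted p = 0.0521 and 0.0749), and that of Runx1 without WT replicate 2, WT replicate 3, Mettl3KO replicate 1 or Mettl3KO replicate 3 (adjusted p up to 0.0981). In the Cpa3/Ms4a2 cells alone neither passed (-0.28 for Gata2, adjusted p = 0.904, and -0.58 for Runx1, adjusted p = 0.680). Gata1 (-0.77, adjusted p = 0.356), Cebpa (-0.57, adjusted p = 0.176) and Ikzf2 (-0.75, adjusted p = 0.0996) did not pass.

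Tyrobp, an adaptor of activating immune receptors, had 564, 633 and 582 CPM in WT and 335, 362 and 240 in Mettl3KO (-0.93 ± 0.14, adjusted p = 0.00262). It was lower in every Mettl3KO library and passed in the Cpa3/Ms4a2 cells alone as well (-0.73 ± 0.15, adjusted p = 0.00790). Cyp4f18, an enzyme that degrades leukotriene B4, fell by 1.90 ± 0.42 (adjusted p = 0.0320), and its call was lost without WT replicate 1, WT replicate 3, Mettl3KO replicate 1 or Mettl3KO replicate 3 (adjusted p up to 0.194). The tetraspanin Cd9 had 261, 248.6 and 300.5 CPM in WT and 158, 178 and 132 in Mettl3KO, a fall of 0.79 ± 0.16 (adjusted p = 0.0184). Its call was lost without WT replicate 1, WT replicate 3, Mettl3KO replicate 1 or Mettl3KO replicate 3, with adjusted p up to 0.105, and in the Cpa3/Ms4a2 cells alone Cd9 did not pass (-0.69, adjusted p = 0.159).

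Cpa3 itself was used in the split but not in the selection. It had 2061, 2927 and 2833 CPM in WT and 962, 2148 and 1043 in Mettl3KO, which overlapped (-0.92 ± 0.22, adjusted p = 0.0503). Mettl3KO replicate 2 lay among the WT values. For Prss34, a rule gene, the levels within Cpa3/Ms4a2 cells are a description: 94.5, 163 and 143 UMIs per 10000 in WT and 41.4, 78.0 and 44.1 in Mettl3KO. Mcpt8 in the same cells was at 115, 138 and 124 in WT and 43.1, 127 and 61.5 in Mettl3KO, while Ms4a2 was at 10.2, 9.57 and 12.8 in WT and 8.69, 11.1 and 10.4 in Mettl3KO. Prss34 was separate between genotypes, and Mcpt8 and Ms4a2 overlapped.

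**Figure D4:**
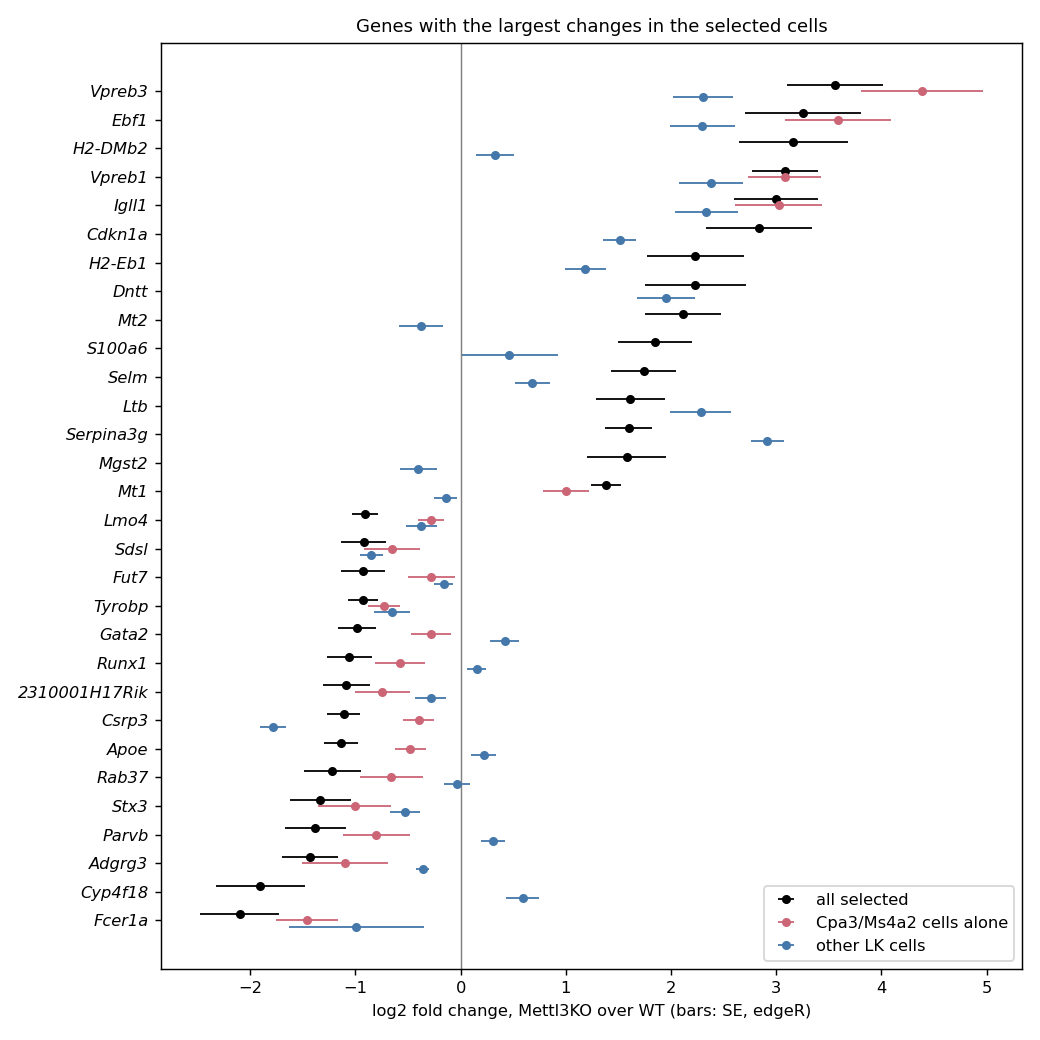
Log2 fold change of Mettl3KO over WT, with SE, for the 15 largest rises and 15 largest falls in the selected cells (black), beside the Cpa3/Ms4a2 cells alone (red, where tested) and the unselected LK cells (blue). Vpreb1, Igll1 and Ebf1 lie to the right in all 3, while Gata2 lies at -0.99 in the selected cells, -0.28 in the Cpa3/Ms4a2 cells and 0.42 in the unselected cells.

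The genes that rose began with metallothioneins, which bind zinc and copper. Mt1 had 197, 237 and 213 CPM in WT and 473, 627 and 589 in Mettl3KO, a rise of 1.38 ± 0.14 (adjusted p = 5.36e-05), and Mt2 had 23.1, 13.6 and 15.7 in WT and 99.5, 94.0 and 45.1 in Mettl3KO (2.11 ± 0.36, adjusted p = 0.00630). Every Mettl3KO library exceeded every WT library for both. Mt1 also rose in the Cpa3/Ms4a2 cells alone, by 1.00 ± 0.22 (adjusted p = 0.0161), and the call of Mt2 was lost without Mettl3KO replicate 1 (adjusted p = 0.0767). Serpina3g, a serine protease inhibitor, rose from 46.1, 52.0 and 37.6 CPM to 171, 124 and 121 (1.598 ± 0.22, adjusted p = 0.000809). Cdkn1a, the p53 target p21, had 6 UMIs in WT and 35 in Mettl3KO (2.84 ± 0.50, adjusted p = 0.00819), a call lost without WT replicate 1, WT replicate 2, Mettl3KO replicate 1 or Mettl3KO replicate 3 (adjusted p up to 0.113). Cdkn1a was the only member of 6 p53 targets tested that passed. Both genes also rose in the unselected cells, Serpina3g by 2.91 ± 0.16 and Cdkn1a by 1.51 ± 0.16 (edgeR adjusted p = 0.000198 and 0.00101).

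Pre-B cell genes rose most. Vpreb1, part of the surrogate light chain, had 10.6, 22.6 and 21.9 CPM in WT and 105, 164 and 183 in Mettl3KO (3.08 ± 0.31, adjusted p = 5.36e-05). Vpreb3 (3.56 ± 0.46), Igll1 (3.00 ± 0.40) and the factor Ebf1 (3.26 ± 0.55) rose with it, and so did Cd79b, so that 5 of the 7 B cell list genes tested rose. Vpreb1, Vpreb3, Igll1 and Ebf1 also passed in the Cpa3/Ms4a2 cells alone, where Cd79b did not (1.25, adjusted p = 0.0555). DESeq2 called neither Ebf1 (adjusted p = 0.396) nor Cd79b (0.388), and the call of Cd79b held in 1 of 6 fits with a library left out, the one without Mettl3KO replicate 2 (adjusted p up to 0.192 in the others). The UMIs sat in few cells: 2 WT and 9 Mettl3KO cells with at least 3 of the 4 genes held 31 of 66 WT UMIs and 390 of 471 Mettl3KO UMIs (82.8%). Without these 11 cells none of the 4 genes passed the low-count filter, and 30 genes passed, with Fcer1a (-2.14), Csrp3 (-1.0005), Lmo4 (-0.88), Gata2 (-0.95) and Mt1 (1.43) among them. The 9 B cell list genes summed to 3.00 to 4.77 UMIs per 10000 in WT and 9.78 to 13.3 in Mettl3KO selected cells, and to 2.86 to 5.77 and 15.3 to 27.4 in the unselected cells. Pax5, a B cell factor, had 5 UMIs over all selected cells. The part of B cell RNA from other cells in these counts was not tested.

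The MHC class II genes H2-Eb1 (2.23 ± 0.46, adjusted p = 0.0226) and Cd74 (0.84 ± 0.19, adjusted p = 0.0376) rose among 4 dendritic list genes tested. In the unselected cells they rose as well, by 1.19 for H2-Eb1 and 0.75 for Cd74. Cd74 stood at 0.69 per 10000 in the Cpa3/Ms4a2 cells, 15.5 in the Prg2 cells and 145 in the Jchain-high cells. Without the Jchain-high cells its log2 fold change was 2.14 (adjusted p = 0.0729), and that of H2-Eb1 was 2.26 (adjusted p = 0.0729). Prtn3, a neutrophil granule protease, had 1331, 1666 and 1343 CPM in WT and 2204, 1866 and 2869 in Mettl3KO over all selected cells, a rise of 0.68 ± 0.14 (adjusted p = 0.0226). Its level was 50.0 per 10000 in the cells with Mcpt8 alone and 7.27 in the Cpa3/Ms4a2 cells, and in the latter alone its log2 fold change was 0.01 (adjusted p = 0.999). The calls of H2-Eb1, Cd74 and Prtn3 were each lost without Mettl3KO replicate 1 (adjusted p = 0.183, 0.280 and 0.0829). They were also lost without WT replicate 1 (H2-Eb1 0.0877, Prtn3 0.115), WT replicate 2 (H2-Eb1 0.0557, Cd74 0.0978), WT replicate 3 (Cd74 0.129, Prtn3 0.0923) or Mettl3KO replicate 3 (Prtn3 0.104), as adjusted p-values.

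The lists gave few further calls. Of 18 basophil genes 11 were tested, 3 fell (Fcer1a, Lmo4 and Cd9), 0 rose, and the median log2 fold change was -0.64. Of 19 mast cell genes 6 were tested and 0 passed (median -0.31). Of 11 eosinophil genes 5 were tested and 0 passed (median 0.92), with Prg3 at 0.92 ± 0.35 (adjusted p = 0.298) and Epx at 1.27 ± 0.51 (adjusted p = 0.320). For IgE receptor signalling 7 of 15 were tested and Fcer1a alone passed. None of 7 cytokine receptors passed, with Il3ra at -0.70 (adjusted p = 0.162), Csf2rb at -0.70 (adjusted p = 0.236) and Kit at -0.07 (adjusted p = 0.966), nor did any of 5 genes of histamine and lipid mediators, with Hdc at -0.44 (adjusted p = 0.354). Of 19 MYC targets tested Ncl rose (0.77 ± 0.15, adjusted p = 0.0172) and the median was 0.25. In the Cpa3/Ms4a2 cells alone Ncl did not pass (0.28, adjusted p = 0.891), and its call over all selected cells was lost without WT replicate 2, WT replicate 3, Mettl3KO replicate 1 or Mettl3KO replicate 3 (adjusted p up to 0.116). No gene passed among 16 G1/S, 17 G2/M, 5 interferon-stimulated, 10 immediate early and 5 BCL2 family genes. All 5 interferon-stimulated genes tested, of 20 listed, were higher in Mettl3KO (median 0.49), and all 10 immediate early genes were lower (median -0.33). The remaining lists had both signs. In the unselected cells 13 of 19 interferon-stimulated genes tested rose and 0 fell (median 0.62), where 13.7% of all genes rose.

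In the Cpa3/Ms4a2 cells alone, 6 genes passed that did not pass over all selected cells. Ms4a3 (-0.77, adjusted p = 0.00172), Clec12a (-1.03, adjusted p = 0.00288), Pglyrp1 (-1.15, adjusted p = 0.0462) and S100a8 (-2.82, adjusted p = 0.0183) fell, all of them genes of granulocyte and monocyte cells. S100a8 had 1230 CPM in WT replicate 3, the library whose unselected cells were rich in granulocyte genes, and 227 or less in the other 5. Mzb1 of plasma and B cells rose (4.82, adjusted p = 0.000659), from 2 UMIs in 1 WT cell to 33 UMIs in 7 Mettl3KO cells. Gzmb rose too (3.397, adjusted p = 0.000659), and most of its Mettl3KO UMIs were in 1 cell of replicate 2.

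To see whether the response of the selected cells differed from that of the LK compartment, the Mettl3KO effect was compared between their sums and those of the unselected cells of the same libraries. In the unselected cells 22.5% of 13037 genes passed, 13.7% upward and 8.81% downward. All 48 genes called in the selected cells were tested there. Of them, 25 passed in the same direction and 2 in the opposite direction. The planned edgeR interaction called 207 of 12180 genes (1.7%), 97 higher (0.796%) and 110 lower (0.903%), but it estimated 1 common spread for all genes and its errors are too small for genes that vary between mice. A limma fit on the log2 ratio of the 2 sums of each library, added after this was seen, called 4 of 4125 (0.097%), with 484 at an unadjusted p under 0.05. These were Mt1 (1.49 ± 0.16), B4galt6 (1.85 ± 0.21), Crip1 (-1.64 ± 0.16) and Cyp4f18 (-2.49 ± 0.27), each at an adjusted p of 0.0460. B4galt6 had 28 WT and 56 Mettl3KO UMIs in the selected cells, of which 5 and 0 were in Cpa3/Ms4a2 cells. The make-up of the selected cells differed between genotypes, and its part in these differences was not tested.

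For Mt1 the effect was a rise of 1.38 in the selected cells and a log2 fold change of -0.14 ± 0.11 in the unselected cells (adjusted p = 0.386). Cyp4f18 fell by 1.90 in the former and rose by 0.59 in the latter. Ifitm1, an interferon-inducible membrane protein, had a log2 fold change of -0.22 (adjusted p = 0.625) in the selected cells and rose by 1.39 in the others (interaction -1.62 ± 0.20, adjusted p = 0.0554 by limma). Gata2 fell by 0.99 in the selected cells and had a log2 fold change of 0.42 (adjusted p = 0.0654) in the unselected cells (limma interaction -1.43 ± 0.22, adjusted p = 0.0883). These latter 2 differences did not pass.

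Of the 25 genes that marked the selected cells, 4 fell in them (Fcer1a, Csrp3, Lmo4 and 4930519L02Rik) and 1 rose (Cd74), and 19 had a negative log2 fold change. The call of 4930519L02Rik, a gene without an assigned role, was lost without WT replicate 1, WT replicate 3, Mettl3KO replicate 1 or Mettl3KO replicate 3 (adjusted p up to 0.178). In the unselected cells 24 were tested, 7 rose and 6 fell. Those that rose included Rnase12 (1.71), Cd200r3 (2.11), Cyp11a1 (2.36) and Ifitm1 (1.39), and those that fell included Csrp3 (-1.78), Hdc (-1.02) and Cpa3 (-0.58). Cyp11a1 had 142 UMIs in WT and 77 in Mettl3KO selected cells, but 79 and 464 in the unselected cells. Fgf3, a growth factor, had 72 and 20 UMIs in the selected cells, and 252 and 1508 in the unselected cells.

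Bulk libraries of the sorted stem and multipotent cells gave a view that the selection did not touch. Transcripts of the markers were there at levels that varied between mice, and no marker passed the test between genotypes. In HSC, MPP1, MPP2 and MPP4, Mettl3KO against WT called 956 (6.15%), 1343 (8.64%), 384 (2.47%) and 486 (3.13%) of 15541 genes, none of the 5 markers among them. Mettl3 fell in all 4 (-1.35, -1.49, -1.08 and -0.77).

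Prss34 was seen mainly in MPP2 and MPP4, with at most 0.356 CPM in any HSC or MPP1 library. In MPP2 it had 40.5, 19.5 and 174 CPM in WT and 7.75, 29.8 and 6.83 in Mettl3KO (-2.40 ± 1.05, adjusted p = 0.262, edgeR quasi-likelihood test with Benjamini-Hochberg adjustment, as in the rest of the bulk results). In MPP4 it had 31.0, 6.96 and 128 CPM in WT and 7.73, 36.2 and 6.25 in Mettl3KO (-1.73 ± 1.03, adjusted p = 0.437). WT replicate 3 was highest in both populations and Mettl3KO replicate 2 the highest knockout, and the genotypes overlapped.

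Prg2 ranged widely. It had 322, 78.5 and 487 CPM in WT MPP2 and 72.1, 170 and 10.7 in Mettl3KO MPP2, and in MPP1 0.197, 0.195 and 9.03 CPM in WT and 2.54, 310 and 62.3 in Mettl3KO (5.29 ± 1.97, adjusted p = 0.0973). Cpa3 in MPP4 had 23.0, 20.1 and 24.3 CPM in WT and 92.8, 38.3 and 50.1 in Mettl3KO, which did not overlap (1.43 ± 0.48, adjusted p = 0.120). Ms4a2 in MPP4 had 2.43, 3.08 and 6.63 CPM in WT and 11.7, 10.8 and 9.28 in Mettl3KO, also without overlap (1.39 ± 1.54, adjusted p = 0.749). Both directions were opposite to those in the LK sums, and these differences were not tested. The share of all bulk genes without overlap was not counted, so the separation of these genes is a description. In HSC, Cpa3 lay between 2.88 and 4.40 CPM in WT. Between WT MPP2 and WT MPP4, 14 genes passed (0.0901%) and none of the markers did, with Ms4a2 at 2.30 ± 1.59 (adjusted p = 0.975) and Prss34 at 0.50 ± 1.00 (adjusted p = 0.984).

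**Figure D5:**
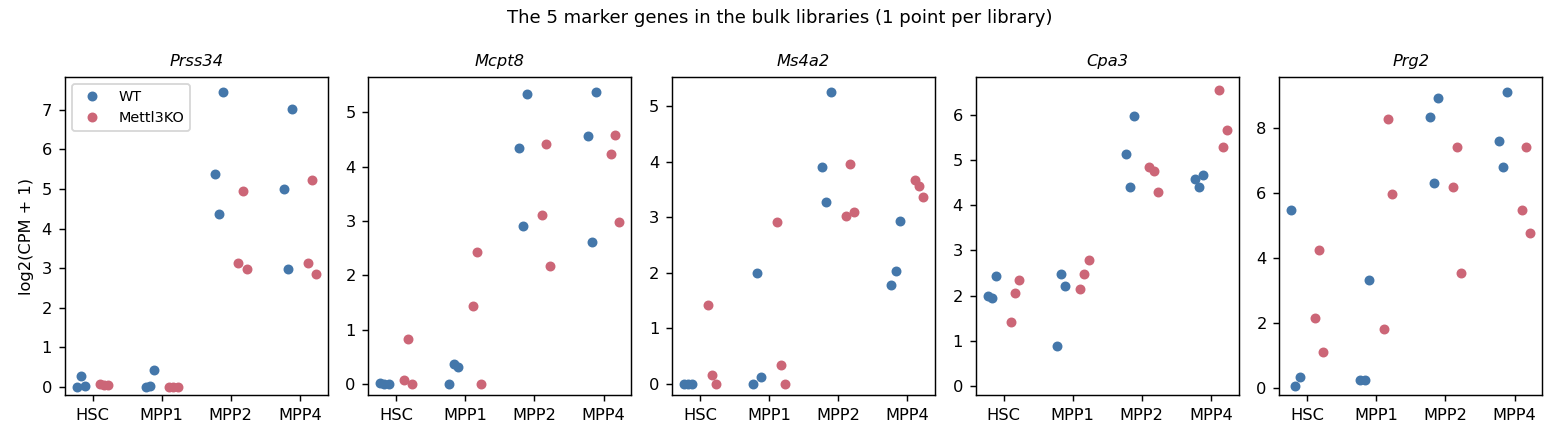
Level of the 5 marker genes as log2(CPM + 1) in sorted HSC, MPP1, MPP2 and MPP4, with 1 point per bulk library. Prss34 and Mcpt8 are highest in MPP2 and MPP4, and in MPP4 the WT and Mettl3KO points are separate for Cpa3 and Ms4a2 and overlap for Prss34, Mcpt8 and Prg2.

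Of 52 genes listed as rule, basophil, mast cell or eosinophil genes, 48 were tested in the bulk fit. The chemokine Ccl3, which basophils and many progenitors make, fell in HSC (-3.33), MPP1 (-2.48), MPP2 (-3.57) and MPP4 (-3.40), and Ccl4 fell in MPP4 (-2.58 ± 0.52, adjusted p = 0.00847; 0.0723 without WT replicate 3). Ccl3 passed in all 4 populations with any 1 replicate left out. Il3ra, the alpha chain of the receptor for IL-3, a growth factor of basophils, rose in MPP1 from 11.2, 15.2 and 16.8 CPM to 28.4, 32.6 and 34.8 (1.15 ± 0.23, adjusted p = 0.00474).

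Of the mast cell proteases, Cma1 and Tpsb2 passed in MPP1, from values at or near 0, and Tpsab1 (adjusted p = 0.141) and Mcpt4 (adjusted p = 0.200) did not. Cma1 was at 0 in the 3 WT libraries and at 0.323, 3.31 and 0.915 CPM in Mettl3KO (adjusted p = 0.0228), and the call was lost without any 1 of the WT libraries (adjusted p up to 0.0692). Tpsb2 had 0, 0 and 0.0238 CPM in WT and 0, 2.10 and 6.80 in Mettl3KO (adjusted p = 0.0282; up to 0.0986 with a library left out, the call being lost without any 1 WT library or Mettl3KO replicate 3). In MPP4 neither passed: Cma1 had 4.99, 2.78 and 6.17 CPM in WT and 80.2, 15.1 and 15.9 in Mettl3KO (3.00 ± 1.25, adjusted p = 0.247), and Tpsb2 had 5.23, 3.71 and 1.99 in WT and 124, 13.8 and 24.1 in Mettl3KO (3.89 ± 1.42, adjusted p = 0.167). The 3 and 3 values of both genes did not overlap in MPP4, but how many of all bulk genes did so was not counted. The selected LK cells held almost none of either apart from the 1 cell with Cma1.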

How the data were processed

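Droplet libraries (6, LK cells) and bulk libraries (24, sorted HSC, MPP1, MPP2 and MPP4) were compared as Mettl3KO against WT, with 3 replicates per group from different mice per the labels. The deposited droplet table held counts of UMIs per gene and cell. The deposited bulk table, labelled FPKM, held whole numbers summing to 28890200 to 55265000 per library and was used as raw counts. The submitters' processing notes name Bowtie, TopHat, Cell Ranger 2.2, mm10 and GRCh37 without roles. The sources used here give neither annotation nor strand setting, so overlapping and antisense genes and near-identical family members are uncertain.

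UMIs of selected, unselected or all kept cells were summed per library and tested with edgeR 4.0.16 in R 4.3.3 (glmQLFTest, TMM, filterByExpr, Benjamini-Hochberg adjustment over all genes tested, threshold 0.05). For selected against unselected cells, library was a block. Rule genes stayed in the fits. They were left out of the counts of calls for the selected and unselected cells, and kept in those for all kept LK cells. Bulk counts had 1 mean per population and genotype, all 24 libraries sharing a spread. Shares were tested by exact permutation in Python 3.11.15. Limma 3.58.1 and DESeq2 1.42.0 served as alternatives. Scripts were tested on simulated data. No doublet caller was run: 5 selected cells had over 2.5 times the median UMIs of their library and 82 had Elane at 10 per 10000 or more. Sequences are from RefSeq.

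Genes were named by rule: the markers, list genes that passed, and the 15 largest rises and 15 largest falls without overlap (5 and 5 for the interaction), and for selected against unselected cells 25 higher and 10 lower genes by their least extreme library at a mean of at least 50 CPM. Gzmb, B4galt6, Crip1, Ifitm1 in the interaction, the whole-LK genes and the genes of the Cpa3/Ms4a2 fit were chosen after values were seen. The cells, lists and tests were chosen with earlier results of these data known. Replicate numbers showed no pairing of the droplet libraries: in the selected cells, correlations of same-numbered deviations were 0.044, 0.051 and -0.055. Whether bulk libraries with the same number are paired was not checked, and their main fit had no replicate block.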

Additional observations from a re-analysis of the deposited data

Results flagged for a closer look

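Shares of 2 groups of selected cells did not overlap between genotypes and differed in opposite directions: the share of kept cells differed by -0.753 percentage points (Mettl3KO minus WT) for Cpa3/Ms4a2 cells and by 0.110 for cells with Mcpt8 alone. The latter group is what the cut-off on Cpa3 and Ms4a2 left over, so the 2 shifts are not independent. The difference between them was not tested.

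The planned interaction fit of edgeR put the Mettl3KO effect in selected cells apart from that in unselected cells for 10 genes named by the rule, with differences in log2 fold change as follows. Higher in the selected cells were H2-DMb2 (2.87; 6 WT and 44 Mettl3KO UMIs in selected cells), Gzmb (3.23; 14 and 75), Gm16104 (3.48; 2 and 19), Crip2 (4.15; 1 and 12) and Igsf3 (10.66; 0 and 6). Lower were Cyp11a1 (-3.08; 142 and 77), Fgf3 (-4.02; 72 and 20), C1qc (-6.30; 5 and 1), C1qb (-7.36; 7 and 1) and Jsrp1 (-12.21; 6 and 0). Values for genes at 0 in a group depend on the prior count and are no bounds. In the limma fit with a spread per gene, the 4 of these with enough counts (Gzmb, H2-DMb2, Fgf3 and Cyp11a1) had adjusted p-values of 0.112 to 0.368. C1qb and C1qc, complement genes of macrophages, had 66 and 62 UMIs in WT and 2030 and 1290 in Mettl3KO unselected cells. Groups of 3 libraries were too small to test for a sample far from the others.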

How the results depend on the processing

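The number of genes called in the selected cells (48) was 258 and 15 at cut-offs of 5 and 20 per 10000 and 23 at 5% mitochondrial UMIs. It was 14 for Cpa3/Ms4a2 cells alone and 30 without the 11 cells with at least 3 of the 4 pre-B cell genes. It was 150 without the low-count filter, 77 with a replicate block and 18 with DESeq2. With 1 library left out it was 13 (without Mettl3KO replicate 1) to 81 (without Mettl3KO replicate 2). The cause was not tested, apart from fewer cells and genes under stricter rules. For the interaction (207) it was 360 and 128 at those cut-offs, 73 for Cpa3/Ms4a2 cells alone, 88 with DESeq2, 4 with limma and 134 to 182 with 1 library left out. The C1qc interaction ran from -12.71 to 2.34 with 1 library left out, the latter without WT replicate 1, which held 5 of its 6 UMIs. The whole-LK count (2934) was 1887 to 2614. No paired analysis was possible for the interaction beyond the library block because each library holds both sums. DESeq2 called more genes in bulk: 1791 in HSC, 2404 in MPP1, 1013 in MPP2, 1119 in MPP4 and 70 between WT MPP2 and MPP4. With 1 replicate left out, bulk counts were 454 to 1275, 680 to 1774, 109 to 220, 137 to 350 and 1 to 12. The difference in share was -0.747 to -0.476 percentage points. The replicate block gave 2055 whole-LK calls, with that of Lmo4 lost (adjusted p = 0.063). DESeq2 did not call Fcer1a (adjusted p = 0.218), Runx1 or Cd9 (0.0918 each), Ebf1 (0.396), Cd79b (0.388), 4930519L02Rik (0.102), B4galt6 (0.388) or Cd74 (0.510), and gave no adjusted p for Cyp4f18, Cdkn1a or H2-DMb2. Over the genes named in the selected cells and all settings apart from left-out libraries, 439 values kept their side of the threshold, 136 no longer passed and 6 newly passed. Low counts limit what could be tested: Mettl3 could not be tested in the selected cells, and 31 of 48 called genes could be tested in the Cpa3/Ms4a2 cells.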
